A study of Mus musculus with 4 samples.

Results

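The glutathione peroxidase (Gpx) and glutaredoxin (Glrx) genes form 2 enzyme families tied to glutathione. They were taken here as the 10 genes Gpx1, Gpx2, Gpx3, Gpx4, Gpx7, Gpx8, Glrx, Glrx2, Glrx3 and Glrx5, found through array probes named by a RefSeq transcript of one of these genes. They had 13 probes of 41174 on the array, and 10 genes of the 18212 that received a symbol. Expression was measured on 4 arrays of Hepa1c1c7, an established mouse hepatoma line grown in culture. On 2 arrays the RNA came from cells exposed to 100 µM diethyl maleate (DEM), and on the other 2 from cells given dimethyl sulfoxide (DMSO), both for 6 hours. No genotype or transgene is named for either group, and both groups are the same line in the same medium. The RNA samples of a group are called independent, with nothing on separate cultures, so the p-values rest on a spread that may be technical. One protocol label speaks of liver tissue where every other label names the cell line.

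Glutathione peroxidases reduce hydrogen peroxide and lipid hydroperoxides to water and alcohols, and glutathione is oxidised to its disulfide in the process. Glutathione reductase, made by Gsr, returns the disulfide to glutathione with electrons from NADPH. Glutaredoxins use glutathione to open the mixed disulfides that glutathione forms with proteins, and some of them carry iron-sulfur clusters instead. Several peroxidases hold selenocysteine at the active site and need a dedicated machinery to insert it, whereas Gpx7 and Gpx8 use cysteine and work in the endoplasmic reticulum. DEM is an electrophile that consumes glutathione, and the series title calls it an activator of NRF2, a transcription factor that drives glutathione synthesis and detoxification genes. The comparison asks whether transcripts of the Gpx and Glrx families differ after exposure.

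A short upstream sequence is what NRF2 is known to bind, the antioxidant response element. Its core was searched as TGACNNNGC on both strands in the 250 bases before each RefSeq start site (GRCm38.p6, a later build than the mm9 annotation of the array). Gclm, which rose in these cells, is shown for a window that holds the core, at chr3:122245398-122245456 on the plus strand, with the core in capitals on the strand opposite to the gene. The upstream windows of Gpx2, a peroxidase known as an NRF2 target, and of Gpx1 are shown for comparison, with every TGAC, or GTCA on the other strand, in capitals. These lie at chr12:76795555-76795804 on the minus strand and chr9:108338830-108339079 on the plus strand.
Gclm: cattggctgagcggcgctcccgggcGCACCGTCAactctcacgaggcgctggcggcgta
Gpx2: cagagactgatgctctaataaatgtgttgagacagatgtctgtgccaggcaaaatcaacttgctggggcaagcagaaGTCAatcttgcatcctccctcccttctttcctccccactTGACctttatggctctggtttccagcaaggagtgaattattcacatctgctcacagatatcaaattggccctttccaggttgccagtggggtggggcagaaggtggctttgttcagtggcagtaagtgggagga
Gpx1: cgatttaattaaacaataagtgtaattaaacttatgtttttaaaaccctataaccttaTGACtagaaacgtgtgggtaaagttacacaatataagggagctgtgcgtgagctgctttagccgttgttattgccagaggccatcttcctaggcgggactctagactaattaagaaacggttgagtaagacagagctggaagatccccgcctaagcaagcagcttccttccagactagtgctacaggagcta

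All 10 members matched a window, with 17 windows in all because Gpx4, Glrx2 and Glrx have several start sites. The core was found in 0 of these 17 windows, and in 3338 of 32851 windows of all genes (10.2%). TGAC on either strand, with or without the rest of the core, was found in 13 of the 17 windows and in 80.2% of all windows. A window without the core says only that these letters are absent from it. The single window of Nqo1, whose transcript was 5.10-fold higher in DEM, held no core either. Among other genes called higher below, the 1 window of Slc7a11 and the 2 windows of Pgd held none. Txnrd1 held it in 1 of 3 windows, and Hmox1 and Slc40a1 had no window to search.

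None of the 8 members that could be tested was called higher or lower in DEM. Their log2 changes lay between −0.15 for Gpx1 and 0.16 for Gpx2, with a median of 0.02, against −0.01 for all 15537 genes tested. With DEM replicate 1 left out the members' median was −0.12, and with DMSO replicate 1 left out it was 0.08. Under median scaling it was 0.16, where the median of all genes was 0.14. The count of members called was 0 of 8 by limma, with Benjamini-Hochberg adjustment over all genes and a threshold of 0.05, beside 1.22% of all genes tested (0.714% higher and 0.508% lower). With the same threshold on unadjusted p-values it was also 0 of 8, beside 19.2% of all genes. DEM and DMSO values did not overlap for 1 of the 8 members, beside 50.6% of all genes. Members had a median absolute log2 change of 0.06 and all genes one of 0.15. A change that misses the threshold may still be real, so the interval of each difference is given below. For 8 of the 8 members the 95% interval of the change lay within 2-fold in either direction, as for 88.9% of all genes. For 6 of the 8 it lay within 1.5-fold, as for 65.5% of all genes, and under spike-in scaling this count was 3.

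**Figure D1:**
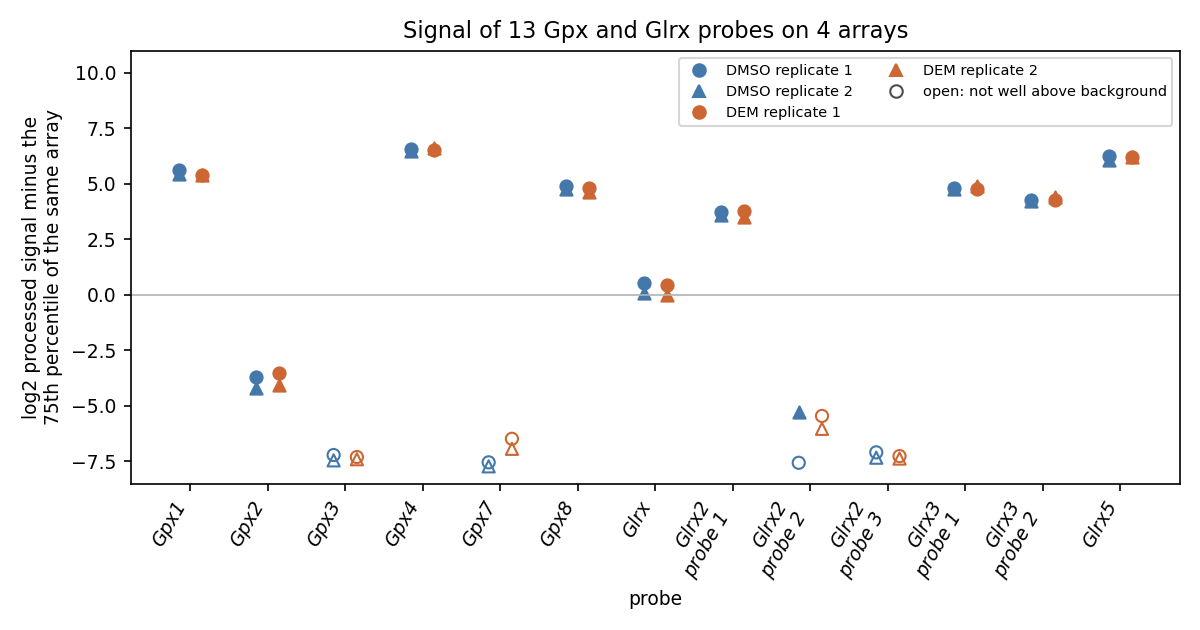
Log2 processed signal minus the 75th percentile of the same array (vertical axis) for each of the 13 member probes (horizontal axis), with 1 point per array, circles for replicate 1, triangles for replicate 2 and open symbols where the probe was not well above background. The DEM and DMSO points of most filled probes lie side by side at similar heights, on an axis too wide to show small differences. Levels of different probes cannot be compared because probes differ in how they bind.

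Signals below are processed signals, the array software's background-subtracted spot brightness on a linear scale with no common unit. Differences are on a log2 scale after each array was scaled to its 75th percentile, which was 513 to 547.5. The lowest signal that counted as well above background ranged from 12 to 15.7 over the 4 arrays. Levels are therefore compared within a probe and never between probes.

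Gpx1 encodes the main cytosolic peroxidase for hydrogen peroxide, a selenoprotein. Its probe (A_52_P684378) read 26700 and 22600 in DMSO and 23400 and 22100 in DEM. Both DEM values lay below both DMSO values after scaling, the only member tested for which the groups did not overlap. The log2 change was −0.15 ± 0.10 (SE, n = 2 arrays per group), or 0.899-fold with a 95% interval from 0.741-fold to 1.09-fold, and did not pass the test (limma adjusted p = 0.507). The scaled DMSO arrays were themselves 0.19 apart, more than the change. After normexp background correction the change was −0.23 (limma unadjusted p = 0.0417, adjusted p = 0.201). It was −0.17 under quantile normalization, −0.01 under median scaling and −0.22 under spike-in scaling. The other settings either leave this estimate as it is or drop 1 array. With groups that do not overlap, neither can turn its sign.

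Gpx4 reduces hydroperoxides within membrane lipids and is known as the enzyme that holds back ferroptosis, a form of death by lipid peroxidation. Its probe (A_51_P462448) read 51100 and 45400 in DMSO and 50900 and 51100 in DEM. The highest reading was the same in both groups, and the scaled values overlapped. The log2 change was 0.04 ± 0.09, with a 95% interval from −0.21 to 0.29 that covers 0.865-fold to 1.22-fold (limma adjusted p = 0.861). The sign was negative after normexp background correction (−0.07) and under spike-in scaling (−0.02). The probe carries 1 of the RefSeq transcripts of Gpx4, and whether it separates the cytosolic, mitochondrial and nuclear forms was not tested. RefSeq lists pseudogenes of Gpx4 and Gpx2, and signal shared with them was not tested either.

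Gpx2 encodes the peroxidase best known from the gut epithelium. Its probe (A_51_P486810) read 41.1 and 27.9 in DMSO and 48.2 and 31.6 in DEM, well above background on all 4 arrays but close to the floor. In each group the array numbered 1 was the higher one, and the groups overlapped. The arrays numbered 1 and 2 differed by 0.51 in DMSO and 0.56 in DEM on the log2 scale, more than the difference of 0.16 ± 0.27 between DEM and DMSO. The 95% interval of the change ran from 0.68-fold to 1.84-fold (limma adjusted p = 0.799), the widest of the members. Without DMSO replicate 2 the log2 change was −0.09, and without DEM replicate 1 it was −0.12.

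Gpx3, the secreted peroxidase of plasma, was not well above background on any array. Its probe (A_51_P292008) read 3.60 and 2.93 in DMSO and 3.47 and 3.13 in DEM. Gpx7, an endoplasmic reticulum peroxidase, was also not well above background on any array (A_51_P461364). It read 2.86 and 2.43 in DMSO and 6.12 and 4.32 in DEM. Both DEM readings of Gpx7 were higher than both DMSO readings, yet all 4 lay below the lowest signal that counted as well above background, so no fold is given for either gene. Gpx6, a further family member known from olfactory tissue, was likewise not well above background on any array (2.74 to 5.57). Gpx5 and the glutaredoxin-like genes Grxcr1 and Grxcr2 had no probe named by a RefSeq transcript and were not analysed here.

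Gpx8, the membrane-anchored peroxidase of the endoplasmic reticulum, gave a strong signal. Its probe (A_51_P495232) read 16200 and 13900 in DMSO and 15300 and 13200 in DEM. The groups interleaved, with the array numbered 1 the higher in both. The log2 change was −0.12 ± 0.11, or 0.92-fold with a 95% interval from 0.745-fold to 1.14-fold (limma adjusted p = 0.636). It was 0.03 under median scaling.

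Glrx, the cytosolic glutaredoxin that removes glutathione from proteins, had a probe (A_51_P210395) that read 768 and 544 in DMSO and 752 and 537 in DEM. The readings of like-numbered arrays were close, and the arrays numbered 1 exceeded those numbered 2 by 0.45 in DMSO and 0.43 in DEM on the log2 scale. The change between DEM and DMSO was −0.07 ± 0.23, with a 95% interval from 0.628-fold to 1.45-fold (limma adjusted p = 0.912), and it turned to 0.08 under median scaling. A difference past 0.40 in the same direction in both groups was seen for these 2 members and for 3.49% of all genes tested. The array numbered 1 was the higher in both groups for 5 of the 8 members and for 36.9% of all genes.

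Glrx2, known as the mitochondrial and nuclear glutaredoxin, had 3 probes, all annotated to the same transcript, and they disagreed in detection. The brightest (A_51_P483928) read 7010 and 6120 in DMSO and 7410 and 6110 in DEM, with a log2 change of 0.00 ± 0.12 and a 95% interval from 0.795-fold to 1.25-fold (limma adjusted p = 0.994). A further probe (A_52_P514107) was well above background on DMSO replicate 2 alone, where it read 13.3, and read 2.81 on DMSO replicate 1 and 12.5 and 8.07 in DEM. The third (A_52_P706976) read 3.18 to 3.90 and was not well above background on any array. Neither dim probe was tested, and which part of the transcript each probe covers was not examined.

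Glrx3, a cytosolic glutaredoxin with a thioredoxin-like domain that hands on iron-sulfur clusters, had 2 probes that agreed. The brighter (A_51_P157634) read 14800 and 14000 in DMSO and 14900 and 15700 in DEM. The other (A_52_P598336) read 10300 and 9740 in DMSO and 10600 and 11200 in DEM. On both probes DEM replicate 2 was the highest and the groups overlapped after scaling. The log2 change was 0.05 ± 0.09 for the brighter probe, with a 95% interval from 0.868-fold to 1.23-fold (limma adjusted p = 0.840). The other probe gave 0.08 ± 0.10 when every probe was fitted on its own (limma adjusted p = 0.728). For the brighter probe the sign was negative after normexp and under spike-in scaling (−0.07 and −0.02).

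Glrx5, the mitochondrial glutaredoxin that takes part in iron-sulfur cluster transfer, had a probe (A_51_P156631) that read 40200 and 35300 in DMSO and 40400 and 39200 in DEM. DMSO replicate 2 was the lowest and the other arrays were close together. The log2 change was 0.04 ± 0.09, with a 95% interval from 0.862-fold to 1.22-fold (limma adjusted p = 0.875), and it was −0.02 under spike-in scaling.

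**Figure D2:**
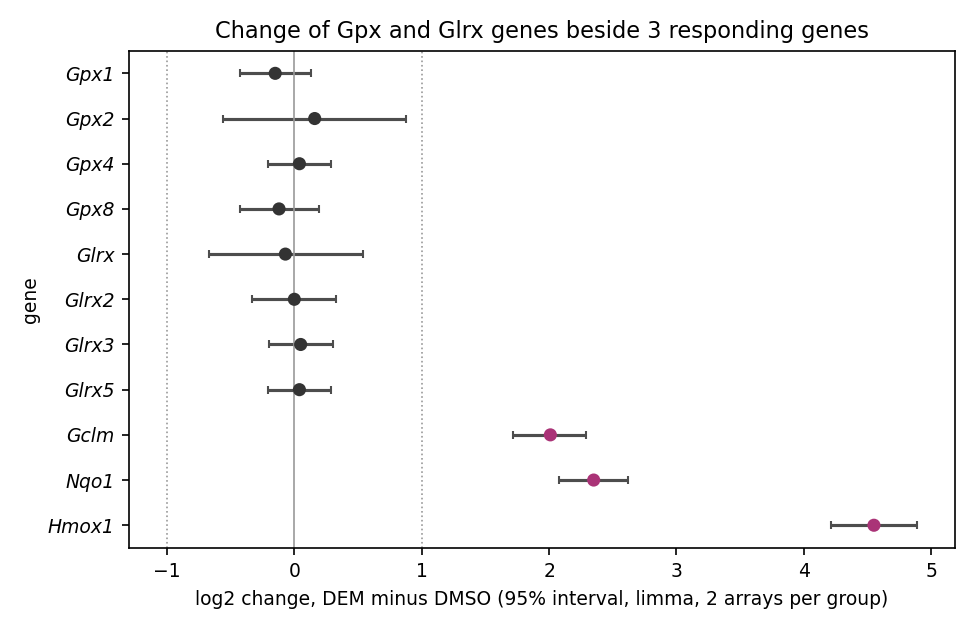
Log2 change of DEM against DMSO (horizontal axis) with its 95% interval for the 8 members tested (dark points) and for Gclm, Nqo1 and Hmox1 (purple points), genes known to respond to DEM, from limma with 2 arrays per group. Dotted lines mark a 2-fold change, and the intervals of all 8 members lie between them while those of Gclm, Nqo1 and Hmox1 lie beyond.

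The same arrays carried clear rises in other genes. In DEM the haem-degrading enzyme gene Hmox1 was 23.4-fold higher, the quinone reductase gene Nqo1 5.10-fold and Gclm, a subunit of the enzyme that limits glutathione synthesis, 4.02-fold (limma adjusted p = 0.00442, 0.0125 and 0.0229). Limma called 0 of all genes without DMSO replicate 1 (where 2113 had an unadjusted p under 0.05), when DMSO replicate 2 was left out (2015) or with no filter on dim probes (3165 of 32288), and these 3 genes then had limma adjusted p-values from 0.0701 to 0.202. Among the genes that supply and regenerate glutathione and its NADPH, 18 of 20 listed genes were tested. Of these 18 genes, 6 rose, 0 fell and 12 were not called (13 of the 18 had a limma unadjusted p under 0.05). Their median log2 change was 0.72 (0.61 to 0.86 over the alternative settings), against 0.02 for the members. Besides Gclm, the rises include Slc7a11, the cystine importer (35.5-fold), and Pgd, a source of NADPH in the pentose phosphate pathway (2.49-fold). The scaled DMSO level of Slc7a11 was low (−4.07), and the size of its rise moved with the processing. Its log2 change was 5.15, against 3.73 after normexp and 4.52 with the mean of its probes. Gsr, the reductase that recycles the disulfide made by Gpx and Glrx enzymes, was 2.03-fold higher and was named after its value was seen (limma adjusted p = 0.0424). Whether the change of a member differed from that of a supply gene was not tested. The list had 0 calls without DMSO replicate 1, without DMSO replicate 2 or with no filter on dim probes, and 2 without DEM replicate 1 or without DEM replicate 2.

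Genes of selenocysteine insertion and selenium supply had 0 calls among 11 tested (3 at an unadjusted p under 0.05), with a median log2 change of −0.01. The largest change was that of Lrp8, a receptor that takes up selenoprotein P, at 0.62 ± 0.10 (limma adjusted p = 0.0782). Lrp8 passed in 6 of the alternative settings, among them normexp, median scaling and the filter on all 4 arrays. The others with an unadjusted p under 0.05, named after their values were seen, were Scly, which frees selenium from selenocysteine (0.55), and Sepsecs, which makes selenocysteine on its transfer RNA (−0.61). Of 14 other selenoprotein genes tested, Txnrd1, the cytosolic thioredoxin reductase, rose 1.76-fold (limma adjusted p = 0.0456), 0 fell and 13 were not called, with a median of 0.08. Among other settings, Txnrd1 was not called under quantile normalization, spike-in scaling, no filter on dim probes or without any 1 array (limma adjusted p from 0.0566 to 0.254 in these settings).

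Genes that build and transfer iron-sulfur clusters, the pathway of Glrx3 and Glrx5, had 0 calls among 26 tested and 0 at an unadjusted p under 0.05 (limma), with log2 changes from −0.16 to 0.20 and a median of −0.02. For 26 of 26 the 95% interval lay within 1.5-fold, as for 65.5% of all genes. The highest was Bola1, a partner of glutaredoxins in cluster transfer, at 0.20 ± 0.10. Under spike-in scaling, where intervals were wider for the members as well, the interval of Bola1 ran from −0.40 to 0.68, past 1.5-fold. The median of the list was −0.08 in that setting. The 26 of 26 therefore does not hold in every setting. Bola1 is only an example, and how many of the list stayed within 1.5-fold there was not counted. Genes of oxidative protein folding, the compartment of Gpx7 and Gpx8, had 0 calls among 13 (2 at an unadjusted p under 0.05) and a median of 0.09. The largest change was in Ero1b, an oxidase that produces hydrogen peroxide in the endoplasmic reticulum, at 0.69 ± 0.14 (limma adjusted p = 0.112), which passed under median scaling (0.0322), a setting that raises all genes, and was 0.25 after normexp (0.169). Genes of lipid peroxidation and ferroptosis, the setting in which Gpx4 works, had 2 rises, 0 falls and 10 not called among 12 tested. Of the 12, 5 had a limma unadjusted p under 0.05, and the median was 0.12. The rises were in Hmox1 and in Slc40a1, the iron exporter (3.25-fold, limma adjusted p = 0.0229). Both lost their call without DMSO replicate 1, without DMSO replicate 2 or with no filter on dim probes.

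**Figure D3:**
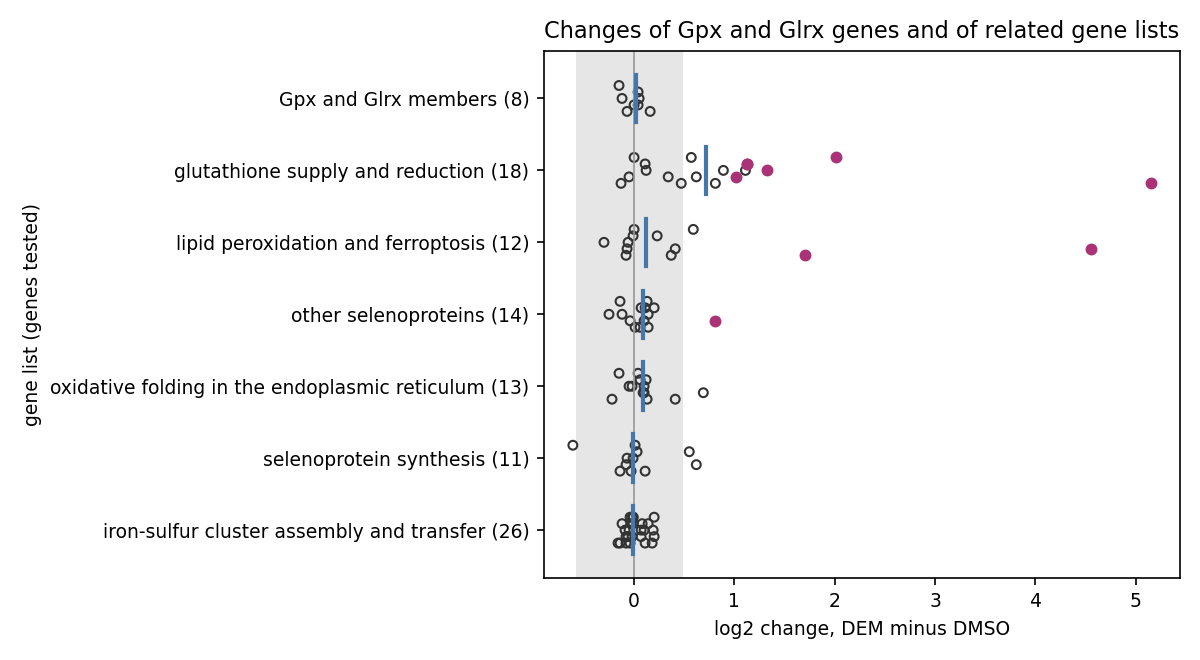
Log2 change of DEM against DMSO (horizontal axis) for each tested gene of the Gpx and Glrx families and of 6 related gene lists (rows, with the number tested), with called genes as filled purple points, other genes as open points and the median of each row as a blue line. The grey band holds the changes of all genes tested from the 5th to the 95th percentile (−0.57 to 0.47), and all 8 members lie inside it.

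Between 50.4% and 52.6% of probes passed the background flag on an array, and saturation was flagged for 0 spots. Over the tested genes, arrays correlated at 0.994 within each group and at 0.989 to 0.991 between groups, a correlation across genes, which are not independent replicates. Median scaling shifted all genes alike, so the signs it gives to members near 0 carry that shift. Of 12 hepatocyte markers 11 had a probe. Alb, Afp, Apoa2, Krt8 and Krt18 were well above background on all 4 arrays, whereas Ttr, Apoa1, Hnf4a and Fgb were not on any. Apob was well above background on 3 arrays and Tat on 1. Of the endothelial markers, Pecam1, Cdh5, Kdr and Tek were not well above background on any array, and Lyve1 was on all 4. Markers of other cell types were also well above background on all 4 arrays: Krt19, Krt7 and Sox9 of cholangiocytes, Col1a1, Acta2, Des and Pdgfrb of fibroblasts and stellate cells, and Csf1r and Cd14 of leukocytes. From the same lists, Epcam of cholangiocytes, Lrat of stellate cells and Adgre1 of macrophages were not on any array. Col1a2 of fibroblasts and Ptprc and Lyz2 of leukocytes were well above background on 1 array. Limma called 0 of the 16 marker genes tested over the hepatocyte, cholangiocyte, leukocyte, endothelial and fibroblast lists.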

How the data were processed

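Deposited values are processed signals, an intensity on a linear scale from Agilent Feature Extraction 10.7.3.1 after its own background subtraction, per the file headers, with flags for outliers and for spots well above background. RNA was labelled with Cy3, per the labels' protocols. The authors' deposited value table held the same intensity at all 45018 spots of each array, with medians of 13.8 to 16.2, so its scale is linear and uncentred.

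From these, log2 was taken and each array's 75th percentile over 43379 non-control spots subtracted. Flagged spots were dropped and 22 probes left out. Probes were named through RefSeq (GRCm38.p6), 26676 of them with a symbol. A gene was tested if its probe passed that background flag on 2 or more arrays, and the brightest probe stood for the gene. DEM was compared with DMSO by limma 3.58.1 in R 4.3.3 across 15537 genes (Benjamini-Hochberg, threshold 0.05). Of these, 10953 had a symbol, and 4584 had none and were counted under the name the array gives them. Shares of all genes are over both kinds. The fit was also run on simulated data. Those data were drawn from the noise model of limma itself, so they do not check the spread of these arrays. Members and lists were chosen with earlier results of these data known. The text names all members, up to 3 called genes of each list or its largest change where none was called, and Nqo1, Hmox1 and Gclm. Gsr, Scly and Sepsecs lie outside this rule and were named after their values were seen. The number of arrays limits the precision. Normexp used the median spot signal with an offset of 50. All arrays lay on 1 slide with 1 scan time, so no batch could be fitted.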

Additional observations from a re-analysis of the deposited data

How the results depend on the processing

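No member was called in any of the 16 alternative settings. Not all of these could have called one. The value table repeats the main intensities, and in the settings named below where limma called no gene at all, a member could not be called either. After normexp Gpx1 had a limma unadjusted p of 0.0417 (adjusted p = 0.201). The count of members within 2-fold stayed at 7 or 8, and that within 1.5-fold was 3 under spike-in scaling and 4 to 6 without 1 array. Signs of small member changes turned. Median scaling moved the median of all genes from −0.01 to 0.14, and with that shift Gpx8 was 0.03, Glrx 0.08 and Glrx2 0.14. After normexp Gpx4 was −0.07, Glrx2 0.07 and Glrx3 −0.07. Under spike-in scaling Gpx4, Glrx3 and Glrx5 were each −0.02. Leaving out 1 array gave −0.12 to 0.44 for Gpx2, −0.02 to 0.10 for Gpx4, −0.29 to 0.16 for Glrx, −0.12 to 0.11 for Glrx2, −0.02 to 0.11 for Glrx3 and −0.03 to 0.11 for Glrx5.

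Counts of genes higher in DEM moved more. The glutathione supply list had 11 after normexp and under median scaling, 12 with an intensity trend, plain or robust, 0 with no filter on dim probes, and 0 to 2 without 1 array. Selenoprotein synthesis had 2 after normexp, under median scaling and with the robust trend, and 1 with the filter on all 4 arrays, the mean of a gene's probes or the plain trend. It had 1 lower gene with the filter on all 4 arrays. Other selenoproteins had 0 under quantile normalization, spike-in scaling, no filter and without any 1 array. Oxidative folding had 1 under median scaling. The lipid peroxidation list had 0 with no filter, 4 with the robust trend and 0 to 2 without 1 array. All genes higher ran from 0 (no filter, or without either DMSO array) to 492 (robust trend), against 111, and all genes lower from 0 to 390, against 79. The cause of these shifts was not tested. A group left with 1 array was assumed to vary like the other group.

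With the replicate number as a block, a pairing the labels do not state, other selenoproteins had 0 calls (Txnrd1, limma adjusted p = 0.0539) and all genes 74 higher and 69 lower. Deviations of like-numbered arrays correlated at 0.14 across genes. Members under that block also had 0 calls, with 8 of 8 within 1.5-fold. The value table changed nothing. All 4 arrays shared a slide, so the slide was not run as a block.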
